A study of Mus musculus with 9 samples.

Results

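The laminin chains are the subunits of laminin, the large cross-shaped glycoprotein of basement membranes. Each laminin is a trimer of an alpha, a beta and a gamma chain. Laminin polymerises on the cell surface through its short arms, while the alpha chain's globular end binds integrins and dystroglycan. In the developing kidney, laminins lie under the ureteric epithelium, the nascent nephrons and the endothelium, and the glomerular filter is built on one of them. Netrins carry domains that resemble the short arms of laminin chains.

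The 9 chains described here were chosen by symbol (*Lama1*, *Lama2*, *Lama3*, *Lama4*, *Lama5*, *Lamb1*, *Lamb2*, *Lamb3* and *Lamc1*) and were all found, each as 1 of the 24138 loci of the deposited expression table. Whole mouse kidneys at E15.5 had been profiled by RNA-seq of 9 libraries, 3 of each genotype. The genotypes were Foxd1GC/+;Ntn1fl/fl (homozygous, MUT), Foxd1GC/+;Ntn1fl/+ (heterozygous, HET) and Ntn1fl/fl (wild type, WT), so every kidney carried at least 1 floxed *Ntn1* allele, and WT kidneys carried 2 with no Cre. The GC allele places GFP-Cre in the *Foxd1* gene, so that MUT and HET kidneys also lack 1 *Foxd1* allele and recombination is limited to the *Foxd1* stromal lineage, while other kidney cells keep their floxed alleles. The animals were of both sexes on a C57Bl6/J background. The kidneys came from 3 crosses, and which cross gave which library is not stated. In RNA of a whole organ, fewer cells of a type and less RNA per cell cannot be told apart.

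Values are FPKM, fragments scaled to transcript length and to library size. The number of reads behind them is unknown, so no counting interval is given and precision rests on the spread between 3 libraries. Depth relative to WT-1, estimated from loci of low value, was 0.577 in WT-2 and 0.613 in MUT-3. In the remaining libraries it was 0.902 to 1.28. *Foxd1* lay at 25.8 to 33.7 FPKM in WT, 20.2 to 21.7 in HET and 22.5 to 24.8 in MUT, below every WT library in both Cre genotypes. *Ntn1* lay at 17.8 to 28.9 FPKM in WT, 12.0 to 16.5 in HET and 10.8 to 16.5 in MUT, so the Cre genotypes overlapped each other and lay below WT. A gene-level value covers deleted and remaining exons together. Marker lists of kidney stroma, nephron progenitors, ureteric epithelium, endothelium and podocytes were present in every library. HET-2 stood apart with a summed 706 FPKM over 6 liver genes, against 26.9 to 51.6 in the other libraries. HET-3 held 96.1 FPKM over 5 skeletal muscle genes, mostly *Actc1*, against 4.16 to 11.5 elsewhere. The chain fits and the counts of partner genes in MUT against HET are therefore also given without each of these libraries. So is the *Lama5* estimate in HET against WT. Single partner genes are given with all libraries only.

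The chains covered a wide range of levels. *Lamb1* had the highest mean over the 9 libraries (95.2 FPKM), followed by *Lamc1* (85.9 FPKM), *Lama4* (26.1 FPKM), *Lamb2* (21.0 FPKM), *Lama1* (17.2 FPKM), *Lama5* (14.5 FPKM) and *Lama2* (4.19 FPKM). *Lamb3* (0.624 FPKM) and *Lama3* (0.549 FPKM) were the lowest. FPKM is scaled to transcript length, which allows this order between genes. Some neighbours in the order did not separate within libraries. *Lamb1* exceeded *Lamc1* in 8 of 9 libraries, by a ratio of 0.995 to 1.37. *Lama1* exceeded *Lama5* in 7 of 9 libraries (ratio 0.957 to 1.68), and *Lamb3* exceeded *Lama3* in 6 of 9 (0.777 to 1.8). Every other neighbour kept its order in all 9 libraries, the closest being *Lama4* over *Lamb2* (1.07 to 1.49) and *Lamb2* over *Lama1* (1.06 to 1.57).

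**Figure D1:**
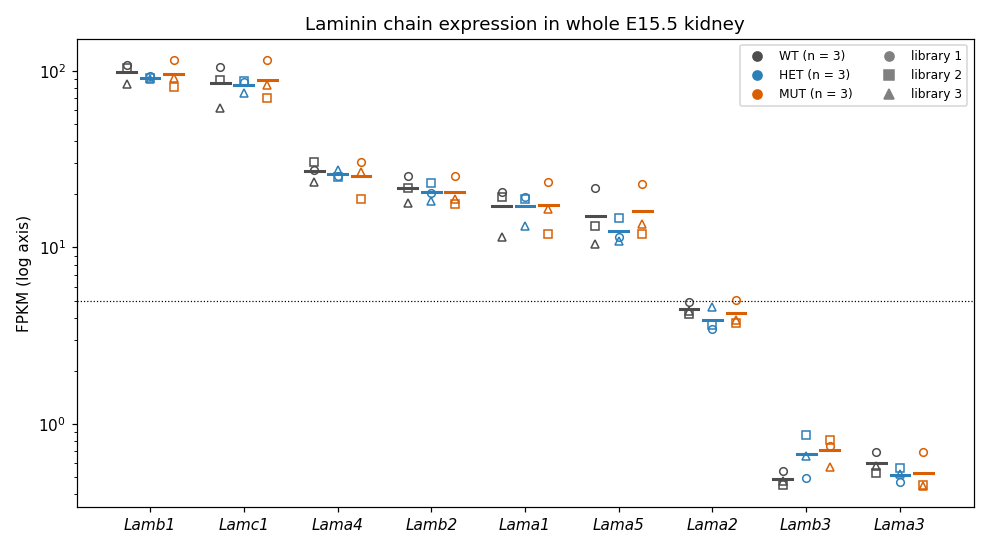
FPKM of each laminin chain (log axis) in the 9 libraries, ordered by mean level; symbols are libraries, coloured by genotype, bars are means of 3 libraries, and the dotted line is the minimum of 5 FPKM for testing. *Lamb1* and *Lamc1* lie near 90 FPKM, *Lamb3* and *Lama3* lie under 1 FPKM, and the 3 genotypes overlap for every chain except *Lamb3*, where MUT lies above WT.

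The alpha chains set where a laminin is used and which receptors it binds. *Lama4*, the alpha chain typical of endothelial and mesenchymal basement membranes, lies at chr10:38965515-39110188 on the plus strand (mm10), with 38 exons in its longest coding transcript. With the libraries of a genotype listed by number here and for the other genes, it measured 27.5, 30.4 and 23.6 FPKM in WT, 25.3, 25.2 and 27.3 in HET, and 30.3, 18.8 and 26.9 in MUT. MUT-2 was the lowest of all libraries and WT-2 the highest, and the genotypes overlapped. *Lama1*, the chain of early epithelial basement membranes and of the forming tubule, lies at chr17:67697265-67822645 on the plus strand, with 63 exons. Its FPKM were 20.7, 19.4 and 11.5 in WT, 19.2, 18.7 and 13.3 in HET, and 23.4, 11.9 and 16.6 in MUT. WT-3, MUT-2 and HET-3 were the lowest libraries, 1 from each genotype, so the spread lay within genotypes and the highest library was 2.04 times the lowest.

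*Lama5* encodes the alpha chain that replaces the *Lama1* product in maturing tubules and in the glomerular filter. It lies at chr2:180176373-180225859 on the minus strand, with 79 exons. Its FPKM were 21.6, 13.3 and 10.5 in WT, 11.4, 14.7 and 10.9 in HET, and 22.8, 11.9 and 13.5 in MUT. WT-1 and MUT-1 stood well above the other 7 libraries, which lay between 10.5 and 14.7 FPKM. It was the most variable of the 9 chains, with a coefficient of variation of 31.4% against 11.9% for *Lamb1*.

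*Lama2*, best known as the alpha chain of muscle and peripheral nerve, lies at chr10:26981285-27616942 on the minus strand. Its FPKM were 4.91, 4.19 and 4.34 in WT, 3.44, 3.63 and 4.57 in HET, and 5.06, 3.75 and 3.87 in MUT. The genotypes overlapped, and all 3 means were under the minimum of 5 FPKM. HET-3, the library with the raised muscle markers, had the highest HET value (4.57 FPKM), below WT-1 (4.91 FPKM) and MUT-1 (5.06 FPKM). The part of muscle in the HET-3 value was not tested. *Lama3*, the alpha chain of the skin and of stratified epithelia, measured 0.694, 0.525 and 0.577 FPKM in WT, 0.469, 0.562 and 0.522 in HET, and 0.697, 0.449 and 0.445 in MUT. It was under 1 FPKM in every library, and its genotypes overlapped too.

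Within the summed alpha FPKM of a library, *Lama4* made up 36.4% to 48.2%, *Lama1* 22.7% to 32.0%, *Lama5* 19.1% to 28.7%, *Lama2* 5.75% to 8.6% and *Lama3* 0.725% to 1.14%. Such shares do not depend on how libraries were scaled to each other, but they can move with a correction for GC content and transcript length. The *Lama5* share was 25.1% ± 2.86 in MUT and 20.6% ± 2.41 in HET (SD, n = 3), a difference of 4.51 percentage points in an exact permutation test with p = 0.2. With that correction the difference was 2.7, and with 1 replicate number left out it was 2.47 to 5.7. Against WT (23.0% ± 4.93), the MUT share differed by 2.05 percentage points (exact permutation p = 0.6), and by 0.583 with the correction. The ratio of *Lama5* to *Lama1*, which rises in normal maturation as one chain replaces the other, was 0.931 ± 0.103 in MUT, 0.733 ± 0.119 in HET and 0.883 ± 0.183 in WT (SD, n = 3). It overlapped between all genotypes. An exact two-sided permutation test of 3 libraries against 3 cannot give p under 0.1, and over the 39 shares and ratios compared the adjusted p was at least 0.975.

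**Figure D2:**
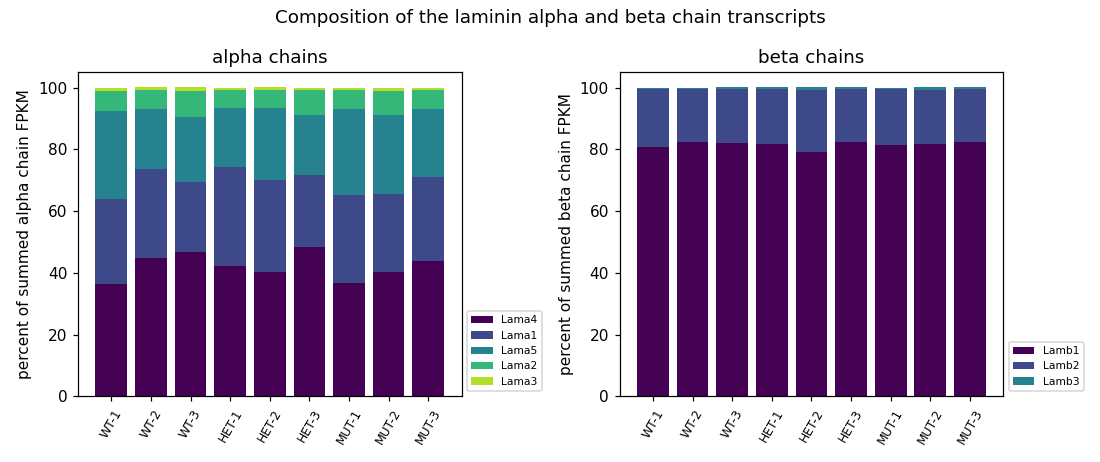
Share of each chain in the summed alpha (left) and beta (right) chain FPKM, in percent, as stacked bars for each of the 9 libraries. *Lama4* is the largest alpha share in every library (36.4% to 48.2%), and *Lamb1* takes 79.0% to 82.5% of the beta total in every library.

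The beta chains hold the most and nearly the least abundant members. *Lamb1*, the widespread beta chain of embryonic laminins, lies at chr12:31265294-31329639 on the plus strand, with 33 exons. It measured 108, 104 and 84.2 FPKM in WT, 93.6, 90.6 and 89.4 in HET, and 115, 81.4 and 90.6 in MUT. The HET libraries lay within the range of both other genotypes. *Lamb2*, the beta chain that the mature glomerular filter requires, lies at chr9:108479862-108490530 on the plus strand, also with 33 exons. Its FPKM were 25.5, 21.6 and 17.9 in WT, 20.4, 23.2 and 18.3 in HET, and 25.5, 17.6 and 18.7 in MUT. WT-1 and MUT-1 were again the highest, and the genotypes overlapped.

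*Lamb3*, the beta chain of hemidesmosomal laminin in stratified epithelia, lies at chr1:193301994-193343878 on the plus strand. It measured 0.539, 0.451 and 0.475 FPKM in WT, 0.497, 0.863 and 0.659 in HET, and 0.754, 0.808 and 0.572 in MUT. All 3 MUT libraries lay above all 3 WT libraries, while HET overlapped both. The ratio of means was 1.46 for MUT against WT, with an exact permutation p = 0.1, the smallest such a test can give, and an adjusted p over the shares and ratios of 0.975 for its share of the beta chains. Of the 9 chains it was the only one whose MUT and WT libraries did not overlap. Of all 19136 loci above 0 in these libraries, 5.33% did not overlap. In limma without a minimum level its log2 fold change was 0.20 ± 0.06 (SE), with an unadjusted p of 0.0182 and an adjusted p of 0.99. HET-2, the highest library for *Lamb3*, was also the one with the liver markers, and their part in its value was not tested. The annotated span of *Lamb3* overlaps *Hsd11b1* and *G0s2* on the opposite strand. The library kit kept the strand, but whether the FPKM used it is not stated in the sources used here.

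The beta genes differ in the bases before their start sites, which are shown because these 3 genes span the range of levels from 0.624 to 95.2 FPKM. RefSeq promoter sequences on GRCm38.p6 were at hand for 5 of the 9 chains. The 250 bases before the start are given below 5′ to 3′, with capitals for each match to the GC box GGGCGG or the TATA box TATAAA on either strand.
Lamb1, chr12:31265043-31265292, plus strand: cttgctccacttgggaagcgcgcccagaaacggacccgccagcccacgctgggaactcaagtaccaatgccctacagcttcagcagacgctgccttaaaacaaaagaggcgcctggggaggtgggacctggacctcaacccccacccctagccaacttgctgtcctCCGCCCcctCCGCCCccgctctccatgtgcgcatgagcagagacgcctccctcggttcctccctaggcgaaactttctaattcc
Lamb2, chr9:108479612-108479861, plus strand: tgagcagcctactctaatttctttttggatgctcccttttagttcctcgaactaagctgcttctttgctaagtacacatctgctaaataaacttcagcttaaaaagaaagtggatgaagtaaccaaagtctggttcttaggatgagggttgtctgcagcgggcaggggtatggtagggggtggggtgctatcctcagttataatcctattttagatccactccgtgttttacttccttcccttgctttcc
Lamb3, chr1:193301744-193301993, plus strand: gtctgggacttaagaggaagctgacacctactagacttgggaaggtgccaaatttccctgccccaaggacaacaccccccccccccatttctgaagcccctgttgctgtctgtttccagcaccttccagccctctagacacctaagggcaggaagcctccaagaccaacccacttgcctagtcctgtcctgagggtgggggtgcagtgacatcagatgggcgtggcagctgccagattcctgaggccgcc
The *Lamb1* window held 2 GC boxes, the nearer 69 bases before the start, a GC content of 62% and 14 CpG dinucleotides. The *Lamb2* window held no match to the GC box, with 43.6% GC and 3 CpG, and the *Lamb3* window held none, with 58.8% GC and 2 CpG. None of the 3 windows held the TATA box. The *Lama5* window, not printed, held 4 GC boxes, with 72.4% GC and 19 CpG, at a mean level of 14.5 FPKM. That of *Lama2* (4.19 FPKM) held 0 GC boxes, with 47.2% GC and 0 CpG. Of 32851 RefSeq windows of this length, 32.7% held a GC box and 12.4% a TATA box, with a median GC content of 52.4% and a median of 6 CpG. A match is a description of these letters only. For *Lamb3* RefSeq gives a second start, and the first is shown. GENCODE annotates transcripts that begin farther upstream, at base 31265234 for *Lamb1*, 108479736 for *Lamb2* and 193207699 for *Lamb3*.

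*Lamb1* made up 79.0% to 82.5% of the summed beta FPKM, *Lamb2* 16.9% to 20.3% and *Lamb3* 0.357% to 0.81%. The mean *Lamb1* share was 81.8% ± 0.569 in MUT, 81.1% ± 1.85 in HET and 81.8% ± 0.976 in WT (SD, n = 3). The *Lamb3* share was 0.622% ± 0.163 in MUT, 0.599% ± 0.159 in HET and 0.407% ± 0.053 in WT (SD, n = 3), with MUT above WT in all libraries (exact permutation p = 0.1). HET-2 had the lowest *Lamb1* share and the highest *Lamb2* share of the 9 libraries.

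*Lamc1*, the gamma chain shared by most laminins, lies at chr1:153218922-153332786 on the minus strand, with 28 exons. Its FPKM were 105, 89 and 61.6 in WT, 86.7, 88.2 and 75.1 in HET, and 115, 70.1 and 82.7 in MUT. MUT-1 and WT-1 were the highest and WT-3 the lowest, with a 1.87-fold range that WT (61.6 to 105 FPKM) and MUT (70.1 to 115 FPKM) each covered in large part. The summed alpha FPKM was 0.667 to 0.82 of the *Lamc1* FPKM, and the summed beta FPKM was 1.22 to 1.67 of it. *Lamc3*, a gamma chain that is no member, lay at 2.0 to 3.54 FPKM and is not in these ratios.

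The study compared MUT with HET, the genotypes that share the *Foxd1* GFP-Cre allele, to ask what loss of the remaining stromal *Ntn1* allele changes. No laminin chain passed the test in this comparison. Of the 9 chains, 6 reached a mean of 5 FPKM in either genotype and were tested; *Lama2*, *Lama3* and *Lamb3* did not. Of the 6, 3 were higher and 3 lower in MUT, with a median log2 fold change of 0.02 beside -0.02 over all 10081 loci tested. The chains' adjusted p were 0.933 to 0.994 (limma, two-sided). With limma 0 of all loci (0%) had an adjusted p under 0.05, with the replicate number as a block or without it.

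At an unadjusted p under 0.05 limma found 494 loci (4.9%; 636 without the block) and none of the 6 chains. The libraries of MUT and HET did not overlap for 9.69% of loci and for 0 of the 6 chains. *Lama5* had the largest difference, a log2 fold change of 0.31 ± 0.18 (SE, 95% interval -0.08 to 0.71, unadjusted p = 0.109, adjusted p = 0.933 by limma). Its same-numbered libraries gave MUT to HET ratios of 1.99, 0.813 and 1.24, so 2 of 3 were higher. Without replicate 1 the log2 fold change of *Lama5* was 0.00, without replicate 2 it was 0.61, and with MUT-1 alone left out, without the block, it was 0.05. Corrected for GC content and transcript length, the *Lama5* value was 0.09. Which chains were higher turned on the library: without MUT-1 and without the block 1 of the 6 was higher (median -0.15), and without MUT-2 all 6 were higher (median 0.19), with 0 adjusted and 1 unadjusted p under 0.05. With the GC and length correction 1 of the 6 was higher and 5 lower (median -0.08).

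The intervals show what sizes remain possible for the other chains. The log2 fold change was 0.07 for *Lamc1* (95% interval -0.30 to 0.44), 0.05 for *Lamb1* (-0.29 to 0.39) and -0.01 for *Lamb2* (-0.33 to 0.30). It was -0.01 for *Lama1* (-0.38 to 0.35) and -0.06 for *Lama4* (-0.37 to 0.25). As folds, the lowest of these bounds was 0.769 (*Lama1*) and the highest 1.36 (*Lamc1*), so a 1.2-fold change in at least 1 direction lay within each interval. Without HET-2 and without the block the 6 log2 fold changes ran from -0.08 (*Lama4*) to 0.44 (*Lama5*), and without HET-3 from -0.17 (*Lama1*) to 0.24 (*Lama5*).

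The study's own criteria asked for a fold of 1.2 or more between mean FPKM, up or down, and for P no higher than 0.05, computed here as an unadjusted one-sided test on same-numbered libraries. *Lama5* was the only 1 of the 6 chains to reach the fold, higher in MUT with a ratio of 1.3, as 7.29% of loci were, while 5.36% of loci and none of the 6 reached it in the lower direction. None of the 6 met the fold and the P together, as 1.18% of loci did in the higher direction and 0.784% in the lower.

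**Figure D3:**
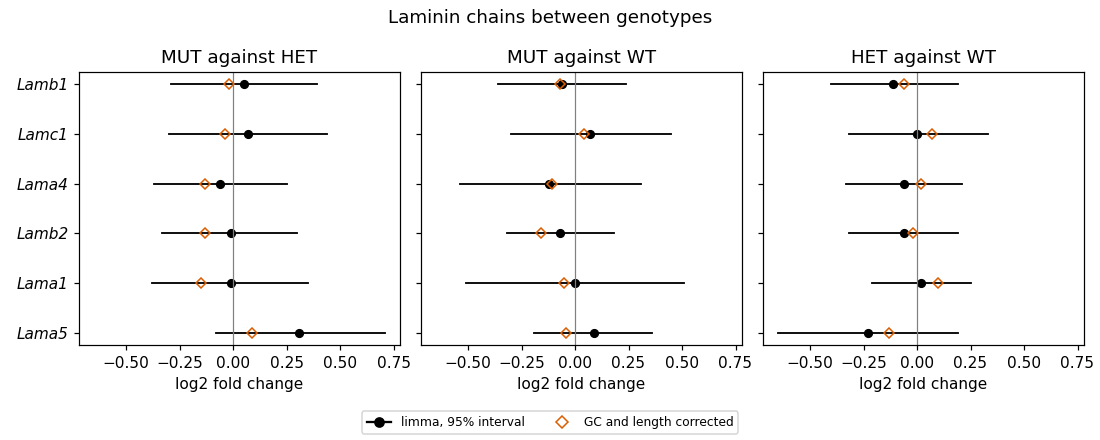
Log2 fold change of the 6 chains tested, for MUT against HET, MUT against WT and HET against WT; black points are limma estimates from 3 libraries per genotype with their 95% intervals, and open diamonds are the estimates after correction for GC content and transcript length. Every interval includes 0, and *Lama5* moves from 0.31 to 0.09 with the correction in MUT against HET.

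MUT and WT differ in the *Foxd1* allele and in Cre as well as in *Ntn1*, and these cannot be told apart. The 6 chains had log2 fold changes from -0.12 (*Lama4*) to 0.09 (*Lama5*) for MUT against WT, with 3 higher and 3 lower and a median of -0.03 beside 0.00 over all 10096 loci. With limma 0 loci (0%) had an adjusted p under 0.05, while 201 loci (1.99%; 65 without the block) and 0 of the 6 chains had an unadjusted p under 0.05. The 2 genotypes did not overlap for 2.65% of loci and for 0 of these 6 chains. Without MUT-1 and without the block all 6 were lower, from -0.25 (*Lama4*) to -0.12 (*Lamc1*), and without WT-1 they ran from -0.10 (*Lama4*) to 0.36 (*Lama5*). The widest interval was that of *Lama1*, -0.51 to 0.51 on the log2 scale. *Lamb2* had an interval of -0.32 to 0.18.

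HET against WT sets kidneys with Cre, 1 *Foxd1* allele and 1 *Ntn1* allele open to deletion in the stroma beside kidneys with none of these changes, which cannot be told apart. The log2 fold changes of the 6 chains ran from -0.23 (*Lama5*) to 0.02 (*Lama1*), with 2 higher, 4 lower and a median of -0.06 beside 0.01 over all 10105 loci. With limma 0 loci (0%) had an adjusted p under 0.05, and 233 loci (2.31%; 108 without the block) and 0 of the 6 chains had an unadjusted p under 0.05. The libraries did not overlap for 3.21% of loci and for none of the 6. *Lama5* had a 95% interval of -0.65 to 0.19, and *Lamb1*, at -0.11, one of -0.40 to 0.19. Without WT-1 and without the block the *Lama5* log2 fold change was 0.05, without HET-2 it was -0.35 and without HET-3 it was -0.15. Both comparisons with WT share its 3 libraries, and both comparisons with HET share the HET libraries, so these estimates are not independent.

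For each of the 6 tested chains, libraries within WT and within MUT lay farther apart than the 3 genotype means did. MUT-1 was the highest of the 9 libraries for 7 of the 9 chains (all but *Lama4* and *Lamb3*). WT-3 was the lowest for *Lama1*, *Lama5* and *Lamc1*, and MUT-2 the lowest for *Lama4*, *Lamb1* and *Lamb2*. The mean deviation of the 6 tested chains from their 9-library means, in log2(FPKM + 1), was 0.29, 0.10 and -0.31 in WT, -0.02, 0.06 and -0.16 in HET, and 0.39, -0.31 and -0.04 in MUT.

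Laminin transcripts are long, 5629 to 11388 bases for these 6. The median deviation of 1390 other tested loci in that length range was 0.17, -0.07 and 0.01 in WT, -0.14, -0.15 and 0.07 in HET, and 0.18, 0.01 and -0.07 in MUT. In WT-1 and MUT-1 the long transcripts were thus raised with the chains, while transcripts of 1 to 2 kb stood at -0.17 and -0.18. In WT-3 and MUT-2 the chains were low while the long transcripts were at 0.01. The part of transcript length in the chains' values was examined only through the GC and length correction given above. The podocyte marker list was also high in WT-1 (229 FPKM summed over 7 genes) and MUT-1 (198 FPKM), and in MUT-2 (204 FPKM), against 127 to 170 FPKM elsewhere. The nephron epithelium list was highest in WT-1 (207 FPKM over 7 genes) and MUT-1 (202 FPKM), against 135 to 182 FPKM elsewhere. The part of either list in the chains' values was not tested.

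**Figure D4:**
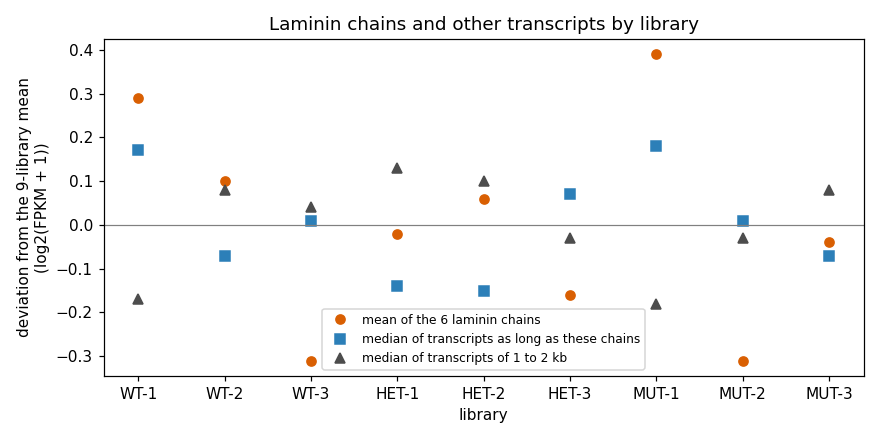
Deviation from the 9-library mean, in log2(FPKM + 1), by library: the mean of the 6 tested laminin chains (circles), the median of 1390 other transcripts of similar length (squares) and the median of 2032 transcripts of 1 to 2 kb (triangles). The chains run from -0.31 in WT-3 and MUT-2 to 0.39 in MUT-1, while long transcripts stay between -0.15 and 0.18.

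The chains rose and fell together across libraries. All 15 pairs of the 6 tested chains had a positive Pearson r of log2(FPKM + 1) over the 9 libraries, from 0.48 to 0.96 with a median of 0.88. By permutation, 12 of the 15 had an adjusted p under 0.05 for r, and 13 for Spearman's rho. The share of other pairs of loci that reach such a p was not examined. The points of a pair share the library, its scaling and the length class, and libraries of 1 cross may not be independent. After correction for GC content and length the 15 values of r ran from 0.38 to 0.94 with a median of 0.64, and no p was computed for them.

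*Lama1* and *Lamc1*, 2 chains of the same embryonic trimer, formed the closest pair, with r = 0.96 (permutation p = 8.27e-06, adjusted p = 0.000124) and rho = 0.98 (permutation p = 4.96e-05, adjusted p = 0.000744). Their r was 0.92 without WT-3 and MUT-2, 0.97 within genotypes and 0.94 after the correction. *Lamb1*, the beta chain of that trimer, had r = 0.92 with *Lamc1* (permutation p = 0.000507, adjusted p = 0.00254, rho = 0.93, permutation p = 0.00075, adjusted p = 0.00225) and 0.77 without MUT-1 and WT-1. *Lamb2*, which is not of that trimer, was as close to *Lamc1*, with r = 0.92 (permutation p = 0.000135, adjusted p = 0.00101, rho = 0.97, permutation p = 0.000165, adjusted p = 0.000827) and 0.80 without these libraries. After the correction r with *Lamc1* was 0.75 for *Lamb1* and 0.51 for *Lamb2*. *Lama4* and *Lama5* formed the loosest pair, with r = 0.48 (permutation p = 0.19, adjusted p = 0.19) and rho = 0.48 (permutation p = 0.194, adjusted p = 0.194), and r = 0.43 without MUT-2 and WT-3.

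Several relations rested on the extreme libraries. Leaving out the 2 farthest from the median gave r between 0.31 and 0.92. For *Lama1* with *Lama4*, r was 0.72 (permutation p = 0.0199, adjusted p = 0.0249; rho = 0.78, permutation p = 0.0172, adjusted p = 0.0235) and 0.34 without WT-3 and MUT-2. For *Lama5* with *Lamb1*, r was 0.84 (permutation p = 0.00607, adjusted p = 0.0091; rho = 0.72, permutation p = 0.0369, adjusted p = 0.0425) and 0.41 without MUT-1 and WT-1.

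As a description, the loci whose levels followed each chain most closely over the 9 libraries were searched among 9977 loci. *Lamc1* was followed by *Usp30* (r = 0.990), *Fras1* (0.989) and *Nol4l* (0.989), *Fras1* being a basement membrane protein of embryonic epithelia. *Lama1* was followed by *Tonsl* (0.990), *Cspg4* (0.986) and *Zer1* (0.979), of which *Cspg4* encodes the NG2 proteoglycan of pericytes. *Lamb2* was followed by *Pdgfrb* (0.967), the receptor that marks stroma and pericytes, *Rrp1b* (0.962) and *Plekhg2* (0.960). *Lama5* was followed by *Tanc1* (0.976), *Arhgef15* (0.974) and *Plec* (0.973), the last being plectin, which links integrins to the cytoskeleton. *Lamb1* was followed by *Dip2b* (0.958), *Ticrr* (0.956) and the joint locus of *Igf2bp1* and *Mir3063* (0.949). *Lama4* was followed by *Srrm1* (0.963), *Nup133* (0.954) and *Pik3c3* (0.948). Such values were not rare: 260 loci had r above 0.9 with *Lamc1*, 175 with *Lama5*, 156 with *Lama1*, 89 with *Lamb2*, 46 with *Lamb1* and 22 with *Lama4*.

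Laminin receptors, the proteins that laminin joins in the basement membrane, its processing enzymes and linkers, netrins and *Lamc3* formed a list of 53 genes in the table, of which 41 were tested. The list includes *Col4a1* and *Col15a1*, which the study had followed up from these same libraries, so it is not independent evidence of a direction. The study's follow-up was qPCR of E15.5 MUT kidneys against Ntn1fl/fl controls, and it reported a general upregulation of both genes. In MUT against HET, 32 of the 41 were higher and 8 lower, with a median log2 fold change of 0.18 beside -0.02 over all loci and 0.02 over the 6 chains. With limma, 0 of the 41 had an adjusted p under 0.05 and 8 an unadjusted p under 0.05, beside 4.9% of all loci. The libraries did not overlap for 8 of the 41 (19.5%), beside 9.69% of all loci, and 45.9% of all loci were higher in MUT. With all libraries and no block, 9 had an unadjusted p under 0.05. Without MUT-1 and without the block, 30 were higher and 10 lower, with a median of 0.13 and 3 at an unadjusted p under 0.05. Without HET-2 and without the block, 35 were higher and 6 lower, with a median of 0.22 and 4 at such a p. Without HET-3 and without the block, 31 were higher and 9 lower, with a median of 0.17 and 7 at such a p. Corrected for GC content and length, 30 were higher and 11 lower, with a median of 0.15.

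Of 16 basement membrane partners tested, 14 had a higher estimate in MUT and 2 a lower one, with a median log2 fold change of 0.25 (0.19 after the GC and length correction), and 5 had an unadjusted p under 0.05. Without MUT-1 these were 11 and 5, with a median of 0.15 and 1 gene at an unadjusted p under 0.05. Without HET-2 they were 14 and 2, with a median of 0.29 and 2 genes at such a p. Without HET-3 they were 14 and 2, with a median of 0.20 and 2 genes at such a p. Of 11 receptors, 8 were higher and 3 lower, with a median of 0.17. Of 11 processing and linker genes, 8 were higher and 2 lower, with a median of 0.16. The stromal marker list also lay higher in MUT (865 to 937 FPKM summed over 8 genes) than in HET (774 to 852 FPKM), and its part in these values was not tested. That list includes the collagen genes *Col1a1* and *Col3a1*, and *Col3a1* was its highest gene, so the sum is partly one of matrix genes.

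The 5 genes of the list with the smallest p in that comparison all had higher means in MUT, and none passed the test. *Col15a1*, a basement membrane collagen, measured 27.4, 19.2 and 17.1 FPKM in WT, 17.1, 17.6 and 18.6 in HET, and 33.0, 25.7 and 21.4 in MUT, with all MUT libraries above all HET libraries. Its log2 fold change was 0.54 ± 0.15 (SE, adjusted p = 0.869 by limma) and 0.46 after the GC and length correction. *Hspg2*, which encodes perlecan, measured 36.0, 29.5 and 16.4 FPKM in WT, 21.3, 19.2 and 20.9 in HET, and 43.1, 20.4 and 29.2 in MUT. Its MUT and HET libraries overlapped, and its log2 fold change of 0.51 ± 0.16 (SE, adjusted p = 0.933 by limma) was 0.25 after the correction.

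*Col4a1*, a chain of the collagen IV network that lies alongside the laminin network, measured 158, 158 and 131 FPKM in HET and 251, 180 and 161 in MUT. These libraries did not overlap, the log2 fold change was 0.38 ± 0.17 (SE, adjusted p = 0.933 by limma), and WT lay at 117 to 230 FPKM, across both. *Dag1*, which encodes the laminin receptor dystroglycan, measured 55.9, 61.5 and 50.0 FPKM in HET and 82.8, 76.3 and 57.7 in MUT. The MUT and HET libraries overlapped, with a log2 fold change of 0.36 ± 0.15 (SE, adjusted p = 0.933 by limma). In WT *Dag1* measured 83.8, 62.8 and 46.0 FPKM, across both.

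**Figure D5:**
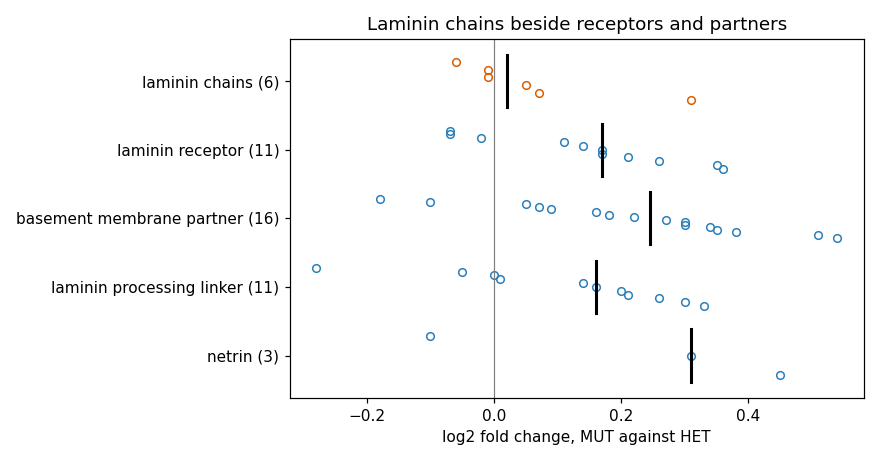
Log2 fold change for MUT against HET (x axis) of each tested gene, by group, with the number of genes in parentheses and the group median as a black bar; points are limma estimates from 3 libraries per genotype. The 6 laminin chains have a median of 0.02 and the 16 basement membrane partners one of 0.25, and no gene shown had an adjusted p under 0.05.

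The netrins share the laminin-type short arm domains. Of the 6 in the table, *Ntn1*, *Ntn3* and *Ntng2* were tested. *Ntng2*, a membrane-anchored netrin, measured 4.36, 4.85 and 3.4 FPKM in HET and 7.46, 7.09 and 4.15 in MUT, which overlapped, with a log2 fold change of 0.45 ± 0.18 (SE, adjusted p = 0.933 by limma). In WT it measured 9.23, 5.14 and 5.19 FPKM, above every HET library and overlapping MUT. Its log2 fold change was -0.05 in MUT against WT (adjusted p = 0.995 by limma) and -0.50 in HET against WT (adjusted p = 0.994 by limma). *Ntn3* lay at 6.62 to 8.23 FPKM in HET, 8.0 to 10.4 in MUT and 7.64 to 9.74 in WT, all overlapping. *Ntn1* had a log2 fold change of -0.10 in MUT against HET (adjusted p = 0.954 by limma). *Ntn4*, a basement membrane netrin that binds laminin gamma chains, lay at 2.09 to 4.76 FPKM over all libraries, *Ntng1* at 0.426 to 0.933 FPKM and *Ntn5* at 0.0185 to 0.13 FPKM.

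In MUT against WT, 32 of the 41 genes were higher and 9 lower, with a median log2 fold change of 0.08, where 48.7% of all loci were higher with a median of 0.00. In HET against WT 11 were higher and 29 lower, with a median of -0.09, where 52.4% of all loci were higher with a median of 0.01. With limma, 0 of the 41 had an adjusted p under 0.05 in either comparison. An unadjusted p under 0.05 was found for 2 and 4 of the 41, beside 1.99% and 2.31% of all loci. Both counts include *Ntn1*, the gene targeted by the design (unadjusted p = 0.000337 and 0.00356 by limma).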

How the data were processed

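RNA from whole E15.5 kidneys (3 libraries each of WT, HET and MUT) was made into stranded mRNA libraries. The authors aligned reads with STAR (mm10 per the labels), built transcript models (cufflinks, cuffmerge) and derived FPKM by CuffDiff; versions and annotation are not given in the sources used here. The deposited FPKM were used as they are, and 3 columns of the authors' genotype means were not used. Positions are those of the deposited table, and exon numbers, lengths and GC content come from GENCODE release 21 (known for 98.6% of loci).

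Genotypes were compared by limma 3.58.1 (R 4.3.3; lmFit and trended eBayes) on log2(FPKM + 1), for loci that averaged 5 FPKM or more in either of them, two-sided, with the Benjamini-Hochberg adjustment over all loci and a threshold of 0.05. Fold changes on this scale understate those of low genes. Each fit held only the 2 genotypes compared and took the replicate number as a block, because the P values in the study's gene lists follow from a test on same-numbered libraries, though no source states a pairing. Chain shares were compared by exact permutation and correlations by permutation (Python 3.11.15, scipy 1.17.1). Of these steps, only the limma fit was tested on simulated data, modelled on the MUT and HET libraries with independent noise. Every chain is named, with the 5 listed partners of smallest p in MUT against HET, *Lamc3*, the netrins and the 3 loci most correlated with each chain. The members and lists were chosen with earlier results of these data known. P-values measure only the spread between libraries. Alternatives were other pseudocounts, minimums and scalings, all libraries in 1 fit, a GC and length correction, no block, and replicates left out. Leaving out single libraries without the block, and recounting the partner list under each alternative, were chosen after seeing the data. One gene of the rule is not reported here.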

Additional observations from a re-analysis of the deposited data

How the results depend on the processing

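Each of the 6 tested chains was recomputed under 18 alternatives in each comparison. Of the resulting 324 values, 0 had an adjusted p under 0.05, and 56 had the sign opposite to the reported value, none of them called. Without the replicate block, limma called 0 loci in each comparison, as with it. Same-numbered libraries correlated at -0.313, 0.053 and -0.131 in their deviations for MUT and HET, at 0.552, -0.265 and -0.03 for MUT and WT, and at -0.197, -0.063 and 0.168 for HET and WT, so the libraries share a number and the data show no pairing. Leaving out a replicate number, with the block, gave between 37 and 107 called loci for MUT against HET, 1 and 72 for MUT against WT, and 1 and 134 for HET against WT, the highest counts without replicate 3, replicate 2 and replicate 3. Leaving out a single library without the block gave between 0 and 3 called loci in each comparison. No laminin chain was among these loci, and the cause was not tested. The *Lama5* log2 fold change in MUT against HET ran from 0.00 to 0.61 over the alternatives, with a lowest adjusted p of 0.366. Median-ratio rescaling gave 4 chains higher and 1 lower in that comparison, and the GC and length correction 1 higher and 5 lower. Of 195 recomputed composition differences, 1 moved by more than 1 SD, the *Lama3* share in MUT against WT, at 0.0574 percentage points without replicate 3. With 3 libraries per genotype and no read numbers, changes of the sizes inside the intervals given for the tested chains remain possible.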
